A study of Mus musculus with 34 samples.

Results

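The 8 genes described here encode proteins with which phagocytes bind dying cells. They were taken as a named list from the 32285 genes measured: the bridging proteins Mfge8, Gas6 and Pros1, the receptor tyrosine kinases Mertk, Axl and Tyro3, the scavenger receptor Stab1 and the phosphatidylserine receptor Timd4. A dying cell exposes phosphatidylserine on its outer surface. The soluble bridges attach to that lipid and to a receptor on the phagocyte, Mfge8 to alpha v integrins and Gas6 and Pros1 to the TAM kinases (Tyro3, Axl and Mertk), whereas Stab1 and Timd4 bind the lipid themselves. In the mammary gland Mfge8 is also a product of the secretory epithelium, as a protein of the milk fat globule.

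Mammary tumours of the MMTV-Wnt1 model, in which the MMTV promoter drives a Wnt1 transgene in mammary epithelium, had been transplanted into C57BL6j mice. In all, 4 droplet single-cell libraries held CD45+ cells extracted with magnets, 2 from untreated tumours and 2 from tumours of mice given 5 consecutive doses of doxorubicin at 4 mg/kg and harvested 48 h after the last one. A further 6 libraries held magnetically extracted CD4/8+ T cells, with 1 library per group: untreated, doxorubicin with harvest at 48 h, and 4 groups in which antibodies began 48 h after the same doxorubicin course, were given every 72 h for 3 doses, and were followed by harvest 24 h after the last. Those 4 groups received 400 µg of IgG control, 200 µg of anti-PD1 with 200 µg of IgG, 200 µg of anti-CTLA4 with 200 µg of IgG, or 200 µg of each blocking antibody. A pooled table of 4016 cells came from unsorted tumours, 1 untreated and 1 given doxorubicin, grown in female wild-type C57BL6/j hosts aged 6 to 8 weeks; its cell names form 2 barcode sets, of 1508 and 2508 cells, and do not say which tumour each set is. The labels do not say that replicate libraries came from separate animals, so p-values measure only the spread between these libraries, which may be technical.

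Cells were gated by how many marker transcripts they held, and none of the 8 genes was a marker. The macrophage gate asked for 4 of 9 markers and held 980 and 737 cells of the untreated and 222 and 682 of the doxorubicin CD45+ libraries. The tumour gate asked for 3 of 8 epithelial markers and held 650, 195, 116 and 276 cells that had come through the CD45 selection. Krt18, a gate marker, stood at 1925 to 2688 UMIs (counted transcripts) per 1000000 UMIs of the gate (CPM) in the tumour gates and at 17.8 to 53.8 CPM in the macrophage gates. A gate is a range on a count and not a cell type: 4.10% to 12.5% of macrophage-gated cells were at the lowest count allowed. Library totals ran from 16908180 to 69108468 UMIs in the CD45+ and from 47843716 to 93748407 in the T cell libraries. Untreated replicate 2 stood apart, with the macrophage gene C1qa at 711 CPM in its T cell gate against 31.3 to 101 in the other CD45+ libraries. In doxorubicin replicate 1 the neutrophil gene S100a8 was at 2759.9 CPM in the tumour gate against 4.89 to 188 in the others. Most tumour-gated cells of each CD45+ library held 2 or more markers of another lineage. They were 493 of 650 and 144 of 195 untreated, and 103 of 116 and 166 of 276 after doxorubicin. The doxorubicin test of this gate could not be run without them for want of cells. The part of RNA from other lineages in the results was not tested.

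In GRCm38.p6 Mfge8 lies on chromosome 7 (79133768 to 79149060, minus strand), as does Axl (25756500 to 25788924, minus strand). Tyro3 (119797740 to 119818104, plus strand) and Mertk (128698915 to 128803162, plus strand) lie on chromosome 2. Gas6 is on chromosome 8 (13465374 to 13494535, minus strand) and Pros1 on chromosome 16 (62854307 to 62929346, plus strand). Timd4 is on chromosome 11 (46810786 to 46844333, plus strand) and Stab1 on chromosome 14 (31139017 to 31168651, minus strand).

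The promoters of the bridges are shown because Gas6 and Pros1 rose together in the tumour gate and Mfge8 is the third of the group. Each is the 250 bases before the RefSeq start, 5′ to 3′ on the gene's strand, from GRCm38.p6: chr7:79149061-79149310 (minus strand), chr8:13494536-13494785 (minus strand) and chr16:62854057-62854306 (plus strand). Capitals mark the GC box, GGGCGG or CCGCCC on the other strand, with overlapping matches run together.
Mfge8: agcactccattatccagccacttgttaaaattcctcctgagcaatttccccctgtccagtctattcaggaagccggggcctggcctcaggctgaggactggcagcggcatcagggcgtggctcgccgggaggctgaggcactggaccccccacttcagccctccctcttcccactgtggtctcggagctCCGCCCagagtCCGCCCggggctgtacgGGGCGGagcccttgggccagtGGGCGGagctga
Gas6: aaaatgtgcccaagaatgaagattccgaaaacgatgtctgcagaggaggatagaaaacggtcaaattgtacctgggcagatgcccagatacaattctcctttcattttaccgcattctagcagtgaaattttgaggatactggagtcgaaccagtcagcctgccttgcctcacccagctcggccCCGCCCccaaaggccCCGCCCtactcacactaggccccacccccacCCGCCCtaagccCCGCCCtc
Pros1: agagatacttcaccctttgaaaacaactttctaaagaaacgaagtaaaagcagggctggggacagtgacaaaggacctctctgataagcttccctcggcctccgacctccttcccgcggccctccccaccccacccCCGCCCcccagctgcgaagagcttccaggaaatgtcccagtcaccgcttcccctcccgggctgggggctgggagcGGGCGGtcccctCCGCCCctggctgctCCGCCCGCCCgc
The GC box was found 4 times before Mfge8, 4 times before Gas6 and 5 times before Pros1, and 32.9% of the 27025 mouse promoters in the same table held it at least once. Mertk held 3, Tyro3 3, Axl 1, and Stab1 and Timd4 0 each. G and C made up 65.2% of the bases before Mfge8, 54.8% before Gas6 and 64.4% before Pros1. The median over all promoters was 52% (quartiles 44.8% and 60.8%). The part of this base content in the GC box counts was not tested. The AP-1 letters TGANTCA, held by 6.9% of promoters, were in 0 of the 8.

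Mfge8, the integrin bridge, was carried after doxorubicin by a small share of macrophage-gated cells. In the macrophage gate it was at 23.5 and 36.7 CPM untreated and 216 and 823 CPM after doxorubicin. Both doxorubicin libraries lay above both untreated ones. The log2 fold change was 4.07 ± 0.83 (SE; 2 libraries against 2) and did not pass (edgeR quasi-likelihood test, Benjamini-Hochberg adjusted p = 0.111). Of the 12330 genes tested in this gate, 29.6% had doxorubicin libraries wholly above the untreated ones and 25.1% wholly below, and 3.92% passed the adjusted threshold of 0.05. The untreated levels were near those of the T cell gate, taken as cells that should lack the transcript, at 23.2, 41.7, 15.2 and 31.5 CPM in the same order. The make-up of the gate, read from marker RNA, differed between the groups. In the order untreated 1 and 2, doxorubicin 1 and 2, cells with markers of an MHC class II type (Vcam1, H2-Aa, H2-Ab1, Cd74) were 83.3%, 90.8%, 38.3% and 35.6% of it, lipid-type cells (Spp1, Gpnmb, Mmp12, Fabp5) 3.4%, 1.2%, 24.8% and 20.5% and resident-type cells (Folr2, Cd163, Lyve1, Ccl8) 1.9%, 0.8%, 7.7% and 17.4%. Lipid-type cells held 76.5% and 68.8% of the gate's Mfge8 UMIs in the doxorubicin libraries. The part of this make-up in the macrophage-gate differences of Mfge8, Gas6, Pros1, Mertk, Axl and Stab1 was not tested, and levels within types are given after the gates. Krt18 was at 29.7, 53.8, 17.8 and 31.4 CPM in the macrophage gate. It is a marker of the tumour gate, and cells richer in tumour than in macrophage markers were not in this gate. Its level here is therefore partly set by the gating, as it is in the other immune gates and types below. The part of epithelial RNA in the Mfge8 level was not tested.

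Macrophages with 5 or more Mfge8 UMIs numbered 7 and 8 in the untreated and 20 and 66 in the doxorubicin libraries. They held 40.9% and 73.2% of the gate's Mfge8 UMIs untreated and 90.96% and 96.8% after doxorubicin. These cells were picked by their own Mfge8 count. Part of this share, and of the low level in the rest of the gate, follows from that cut. The other macrophages of the gate stood at 14.2, 10.3, 22.97 and 33.03 CPM of Mfge8. In the doxorubicin libraries these few cells carried Spp1, osteopontin, at 8537 and 10030.1 CPM and Krt18 at 11.5 and 137 CPM. In the untreated libraries Spp1 was at 16.3 and 808 CPM in them and Krt18 at 530.5 and 1038 CPM. Krt18 was thus higher in these cells untreated than treated, and its part in the result was not tested. The milk protein gene Csn3 was at 241, 706, 19.7 and 545 CPM in these cells. Krt18 in the other macrophages of the gate was at 18.5, 10.0, 18.9 and 4.92 CPM. Csn3 there was at 18.9, 12.3, 14.5 and 8.42 CPM, in the same order. Csn3 was thus higher in the cells with 5 or more Mfge8 UMIs in each library, and Krt18 in all but doxorubicin replicate 1. The part of this RNA in the result was not tested. Without cells that held 2 or more markers of another lineage, the macrophage gate had Mfge8 at 13.2 and 10.9 CPM untreated and 151 and 626 CPM after doxorubicin.

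The share of macrophages with an Mfge8 UMI was compared at 3000 UMIs drawn per cell, leaving out 63, 199, 30 and 115 shallower macrophages and 39, 36, 10 and 39 shallower T cells. It was 4.69%, 3.72%, 13.5% and 18.7% in the order untreated 1 and 2, doxorubicin 1 and 2, against 3.96%, 6.03%, 5.36% and 5.67% of T cells. Before thinning the shares were 15.8%, 14.1%, 31.98% and 31.5% of macrophages and 15.9%, 19.5%, 17.2% and 14.3% of T cells, at median depths of 12719.5, 14754, 15665 and 8517 and of 9103, 10933, 10178 and 6753 UMIs. The untreated macrophage share was above that of T cells in replicate 1 (4.69% against 3.96%) and below it in replicate 2 (3.72% against 6.03%). The T cell gate of untreated replicate 2 also held macrophage RNA, as given above. Whether the untreated shares are background was not tested. Both doxorubicin shares lay above all 4 T cell shares.

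Tumour cells held Mfge8 in every library. The tumour gate was at 634 and 731 CPM untreated and 1121 and 1573 CPM after doxorubicin, without overlap. The log2 fold change of 0.75 ± 0.23 (SE) did not pass (edgeR adjusted p = 0.113); in this gate 39.2% of the 13269 genes tested lay wholly above and 18.6% wholly below, and 4.63% passed. Mfge8 was lower in macrophages than in tumour cells, by 2.95 ± 0.75 on the log2 scale (edgeR with the library as a block, adjusted p = 0.0119); 64.8% of the 14236 genes passed in that comparison, 35.9% as lower and 28.9% as higher. That call was lost without mixed cells (adjusted p = 0.134). The doxorubicin change was larger in macrophages by 3.05 ± 0.56 on the log2 scale, which did not pass (edgeR interaction term, adjusted p = 0.132). It passed with DESeq2 (adjusted p = 3.24e-05). Without mixed cells the difference was 4.59, from 3 libraries of which doxorubicin replicate 2 was the only treated one. By the interaction term 0.155% of genes passed, 0.0983% as higher and 0.0562% as lower. The other 6 members tested for that difference had adjusted p between 0.341 and 0.801.

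**Figure D1:**
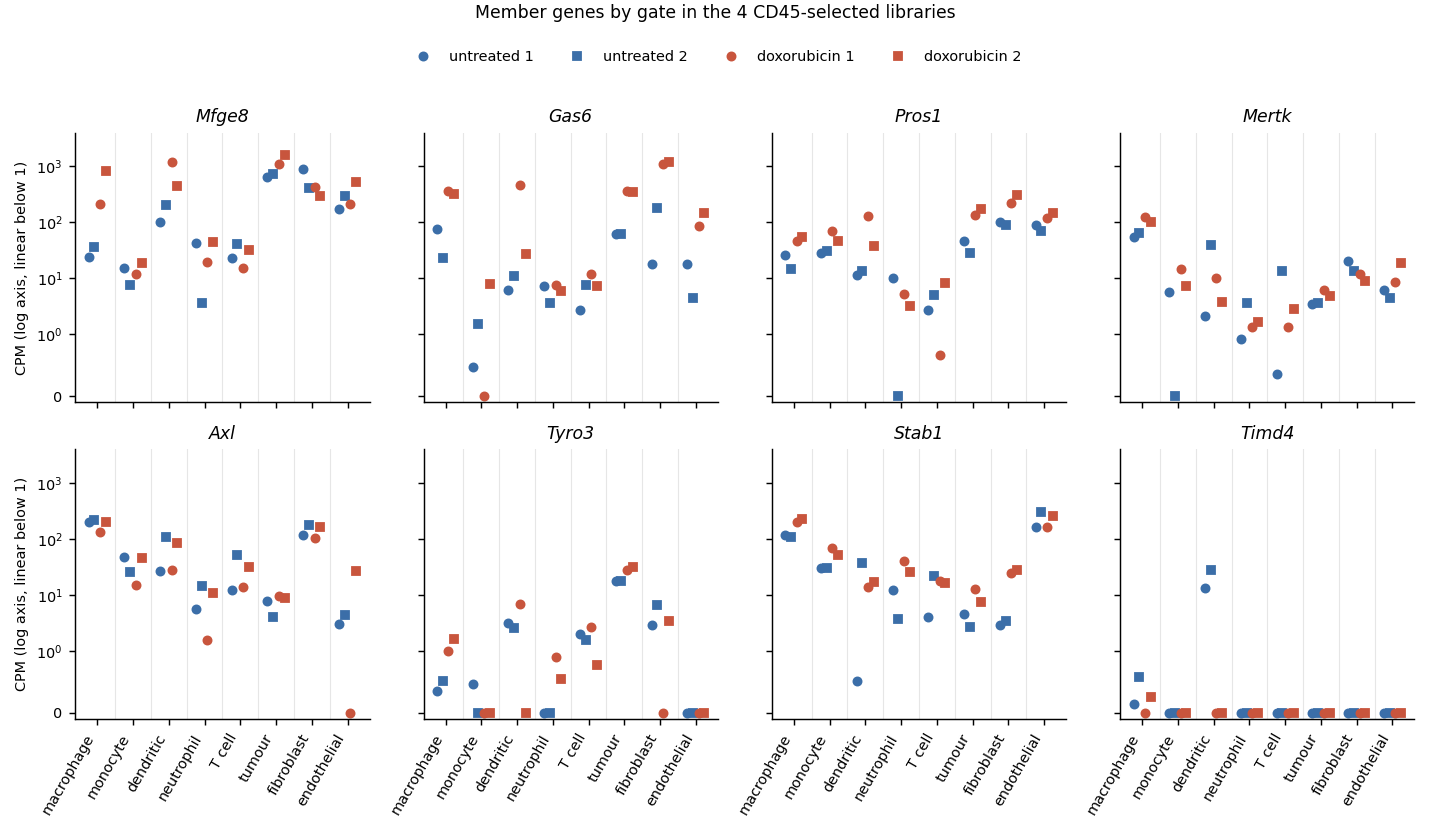
Level of each of the 8 genes (CPM, log axis that is linear below 1) by gate in the 4 CD45+ libraries, 1 point per library, blue for untreated and red for doxorubicin. Mfge8 in the macrophage gate runs from 23.5 to 823 CPM with the red points above the blue, and Timd4 is seen in the untreated dendritic gates at 13 and 27.7 CPM.

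Gas6, the ligand of the TAM kinases, rose in the tumour gate. It was at 62.02 and 61.3 CPM untreated and 359 and 349.5 CPM after doxorubicin. Libraries of a group lay close together and the groups far apart, with a log2 fold change of 2.31 ± 0.23 (SE; edgeR adjusted p = 0.0127; 1.96% of genes passed as higher and 2.67% as lower). With any 1 library left out the adjusted p lay between 0.00534 and 0.0328. In the macrophage gate Gas6 was at 75.2 and 22.8 CPM untreated and 360.4 and 322 CPM after doxorubicin, again without overlap. The untreated replicates were far apart there, and the log2 fold change of 2.76 ± 0.67 (SE) did not pass (edgeR adjusted p = 0.135). The change was 3.89 without untreated replicate 1 and 2.13 without replicate 2. A fit with 1 library left in a group takes its spread from the other group alone. The p-values of such fits, here and below, carry that limit. Gas6 in macrophages and in tumour cells differed by -0.10 ± 0.31 on the log2 scale (edgeR adjusted p = 0.782), a difference whose sign changed without untreated replicate 2 (0.32).

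Summed over all cells of a library, Gas6 was at 48.4 and 31.5 CPM untreated and 223 and 258 CPM after doxorubicin and rose by 2.47 ± 0.27 on the log2 scale (edgeR adjusted p = 0.0138). Of the 16068 genes tested in these sums 5.5% passed, 3.24% as higher and 2.26% as lower, and 34.1% lay wholly above and 23.6% wholly below. In such sums fewer cells of a type and less RNA per cell cannot be told apart. Gas6 was the only member called in these sums by edgeR as set up here. Pros1 was at 31.7 and 18.5 CPM untreated and 62.3 and 84.6 CPM after doxorubicin (edgeR adjusted p = 0.0518), and passed with DESeq2 (adjusted p = 0.000427).

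The fibroblast gate, of 11, 8, 5 and 103 cells, was too small to test. Of these, 9, 5, 5 and 95 cells held 2 or more markers of another lineage. So did 7, 6, 10 and 6 of the 11, 8, 11 and 18 endothelial-gated cells. The part of RNA from other lineages in the levels of these gates, here and below, was not tested. Its Gas6 was at 17.7 and 180.3 CPM untreated and 1119 and 1204 CPM after doxorubicin, the highest of the gates compared in both treated libraries. The endothelial gate held 18.2, 4.39, 84.4 and 149.6 CPM. The T cell gate held 2.73, 7.67, 11.9 and 7.22 CPM.

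Pros1, protein S, a TAM ligand better known as an anticoagulant, rose in the tumour gate too. It was at 45.6 and 28.8 CPM untreated and 133 and 171 CPM after doxorubicin, without overlap, and its log2 fold change was 1.81 ± 0.28 (SE; edgeR adjusted p = 0.0227). Without untreated replicate 2 this was 1.51 and the call was lost (adjusted p = 0.124). The macrophage gate was at 25.6 and 14.7 CPM untreated and 46.7 and 54.8 CPM after doxorubicin, also without overlap, with a log2 fold change of 1.29 ± 0.29 (SE; edgeR adjusted p = 0.0594). This change was 1.77 without untreated replicate 1, and it passed without mixed cells (edgeR adjusted p = 0.0418). Pros1 was lower in macrophages than in tumour cells by 1.05 ± 0.15 on the log2 scale (edgeR adjusted p = 0.000855). Gates not tested for treatment held 100.05, 90.2, 224 and 309 CPM (fibroblast), 87.8, 70.2, 118 and 149.6 CPM (endothelial) and 27.99, 30.7, 70.8 and 46.1 CPM (monocyte), with both treated values above both untreated ones in each.

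Mertk, the TAM kinase known for dead-cell uptake by macrophages, was found mainly in the macrophage gate. It was at 54.6 and 63.2 CPM untreated and 122 and 101 CPM after doxorubicin. The groups did not overlap, and the log2 fold change of 0.89 ± 0.20 (SE) lay just outside the threshold (edgeR adjusted p = 0.0535). The tumour gates held 3.46 to 6.17 CPM. Mertk was higher in macrophages than in tumour cells by 4.38 ± 0.17 on the log2 scale (edgeR adjusted p = 5.32e-06).

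Axl, the TAM kinase with the strongest preference for Gas6, did not share that direction. In macrophages it was at 201 and 217 CPM untreated and 134 and 200.4 CPM after doxorubicin. Both treated values were below both untreated ones, that of replicate 2 only just, and the log2 fold change of -0.36 ± 0.24 (SE) did not pass (edgeR adjusted p = 0.426). Axl was higher in macrophages than in tumour cells by 4.90 ± 0.31 on the log2 scale (edgeR adjusted p = 2.31e-05). Fibroblast gates held 118, 177, 103 and 163 CPM, within or near the macrophage range.

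Tyro3, the remaining TAM kinase, was a transcript of the tumour gate. Tumour cells were at 18.01 and 17.5 CPM untreated and 28.1 and 32.01 CPM after doxorubicin, a log2 fold change of 0.54 ± 0.20 (SE) that did not pass (edgeR adjusted p = 0.157). Macrophages held 5, 7, 4 and 13 UMIs in all, or 0.356 to 1.65 CPM. The level in macrophages was lower by 4.70 ± 0.29 on the log2 scale (edgeR adjusted p = 1.74e-05).

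Stab1, stabilin-1, an endocytic receptor of macrophages and some endothelium, had a change of the same size as Mertk. In macrophages it was at 117 and 109 CPM untreated and 197 and 232 CPM after doxorubicin. The groups did not overlap, and the log2 fold change of 0.89 ± 0.20 (SE) did not pass (edgeR adjusted p = 0.0536). Endothelial gates of 11, 8, 11 and 18 cells held 166, 307, 166 and 255 CPM, which overlapped the macrophage range. Stab1 was higher in macrophages than in tumour cells by 4.92 ± 0.25 on the log2 scale (edgeR adjusted p = 9.89e-06).

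In the macrophage gate 7 of the 8 genes passed the low-count filter. Of these, 6 had both treated libraries above both untreated ones and 1, Axl, had both below, where 29.6% and 25.1% of all genes did. By edgeR 0 of the 7 passed, where 1.78% of genes passed as higher and 2.13% as lower; at an unadjusted p under 0.05, 5 of the 7 were higher, as were 10.9% of all genes. DESeq2, which called 3.63% of genes as higher, called those 5 (Mfge8, Gas6, Pros1, Mertk and Stab1), with adjusted p from 0.000204 to 0.0113. Mertk, Pros1 and Stab1 also passed without the low-count filter (edgeR adjusted p = 0.00991, 0.0025 and 0.0157).

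**Figure D2:**
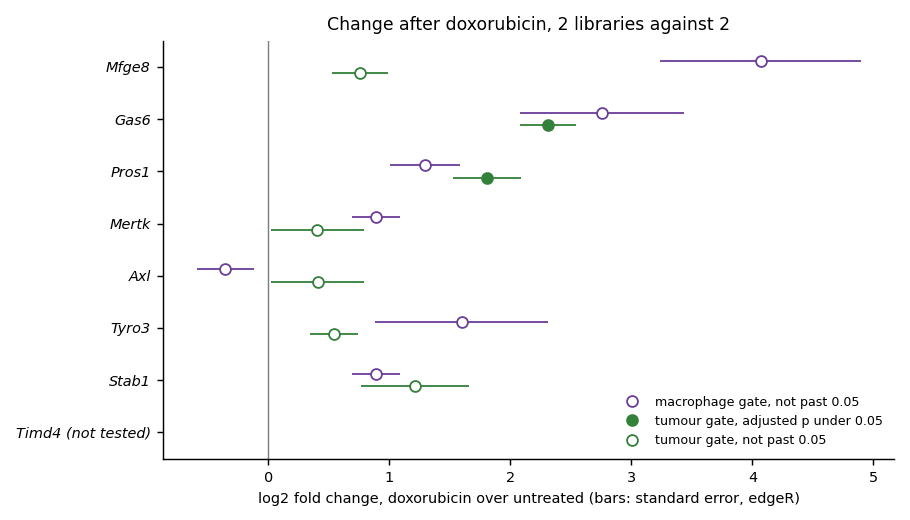
log2 fold change of the doxorubicin over the untreated CD45+ libraries (2 against 2) with its standard error, for each gene in the macrophage gate (purple) and the tumour gate (green); filled points passed an adjusted p of 0.05. The filled points are Gas6 at 2.31 and Pros1 at 1.81 in the tumour gate, and Axl in macrophages lies at -0.36.

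Timd4, which encodes TIM-4, was rare in macrophages and was found in the dendritic gate. That gate asked for 2 of 9 markers and held 98 and 33 untreated cells. Timd4 was at 13 and 27.7 CPM there, from 25 and 33 UMIs, against 0.143 and 0.578 CPM in the macrophage gates of the same libraries. A Timd4 UMI was held by 5.10% and 18.2% of the dendritic-gated cells, so a handful of cells carried the level. Timd4 reached the tests only through the samples in which it was high, and its values are given as a description. After doxorubicin the dendritic gate had 5 and 22 cells and 0 Timd4 UMIs, which allows up to 10.2 and 5.70 CPM by a count of 3; it was not tested. Whole libraries held 27 and 41 Timd4 UMIs untreated and 0 and 2 after doxorubicin. The dendritic gate of untreated replicate 2 also held C1qa at 1401 CPM, against 32.2 in replicate 1, and the part of that RNA in the result was not tested.

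Mfge8 was called between these gates in the 2 untreated libraries. Dendritic cells were at 99.8 and 202 CPM, and macrophages were lower by 2.29 ± 0.28 on the log2 scale (edgeR with the library as a block, adjusted p = 0.0252; adjusted p = 0.136 without the block). Of the 12056 genes tested 1.46% passed, 1.27% as lower in macrophages and 0.191% as higher. Cells of the migratory type (Ccr7, Fscn1, Cacnb3) were at 211 and 851 CPM in 43 and 10 cells, and type 1 cells (Xcr1, Clec9a) at 14.2 and 9.41 CPM in 16 and 10 cells. Krt18 was at 198 and 881 CPM in those migratory cells, and its part in the result was not tested. After doxorubicin the dendritic gates held Mfge8 at 1212 and 440.5 CPM in the same 5 and 22 cells, which was not tested. Of these, 4 and 7 cells held 2 or more markers of another lineage. So did 39 of the 98 and 17 of the 33 untreated dendritic-gated cells. The 5 cells of doxorubicin replicate 1 also held Gas6 at 464 CPM and Pros1 at 130 CPM. The part of RNA from other lineages in these levels was not tested. In 9 migratory cells of doxorubicin replicate 2 Mfge8 was at 841 CPM with Krt18 at 20.6, and in 12 of the IgG library at 452 CPM with Krt18 at 30.4. Mertk was at 2.08 and 39.5 CPM, Axl at 27.04 and 110.0 CPM and Stab1 at 0.520 and 37.8 CPM in the untreated dendritic gates, and none of the 3 passed against macrophages (edgeR adjusted p = 0.474, 0.155 and 0.452). DESeq2 called Mertk and Axl as higher in macrophages (adjusted p = 0.0191 and 0.00267).

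The resident, lipid and MHC class II types were also compared with each other; their 3 marker sets hold none of the 8 genes. The comparison was added after the values had been seen. Levels were compared within libraries that held 10 or more cells of both types, on log2(CPM + 10), with a two-sided exact sign-flip permutation test over libraries adjusted over 18 tests. The resident type could be compared in 5 libraries, where the smallest possible p is 0.0625, so none of its differences could pass. Lipid-type and MHC class II type cells could be compared in 8, where the smallest is 0.00781.

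Resident-type macrophages held the most Gas6 and Pros1. Gas6 was at 868 to 1334 CPM in the resident and 44.1 to 319.9 CPM in the MHC class II type, higher in 5 of 5 libraries by 2.47 ± 1.03 on the log2 scale (SD over libraries, n = 5; exact permutation p = 0.0625, adjusted p = 0.0703). Pros1 was at 107 to 205 CPM against 21 to 47.6 CPM, higher in 5 of 5 libraries by 1.88 ± 0.30 (SD). Stab1 and Mertk were higher in 5 of 5 libraries too, by 0.77 ± 0.60 and 0.39 ± 0.16 (SD). Axl had the opposite order, at 12.2 to 56.7 CPM against 200.1 to 295 CPM, lower in 5 of 5 libraries by 2.68 ± 0.52 (SD). The ranges of Gas6, Pros1, Axl and Stab1 did not overlap between the types. Those of Stab1 lay close, at 287 to 420 CPM against 114 to 275 CPM.

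Lipid-type macrophages held the most Mfge8 in most libraries. Mfge8 was at 13.6 to 4715 CPM (median 1683) against 23.5 to 149 CPM (median 76.2) in the MHC class II type, higher in 7 of 8 libraries by 3.39 ± 1.84 on the log2 scale (SD, n = 8; exact permutation p = 0.0156, adjusted p = 0.0703), which did not pass. The exception was the untreated CD45+ replicate 1, at 13.6 CPM in 33 lipid-type cells. The untreated T cell library was at 224 CPM in 13 cells, and the 6 treated libraries at 613 to 4715 CPM. Krt18 in lipid-type cells was at 5.51 to 28.6 CPM in 7 of the 8 libraries and at 136 in the T cell library harvested at 48 h. Axl was lower in the lipid than in the MHC class II type by 1.41 ± 0.46, Pros1 by 0.62 ± 0.35 and Mertk by 0.37 ± 0.19 on the log2 scale, each in 8 of 8 libraries (SD, n = 8; exact permutation p = 0.00781, adjusted p = 0.0469 for each). When 20 cells of each type were required, 6 libraries were left, where the smallest possible p is 0.03125. Axl, Pros1 and Mertk were again lower in 6 of 6 libraries, each at that smallest p (exact permutation, adjusted p = 0.188 for each). No difference could pass after adjustment with so few libraries, so this check cannot decide whether the calls hold.

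**Figure D3:**
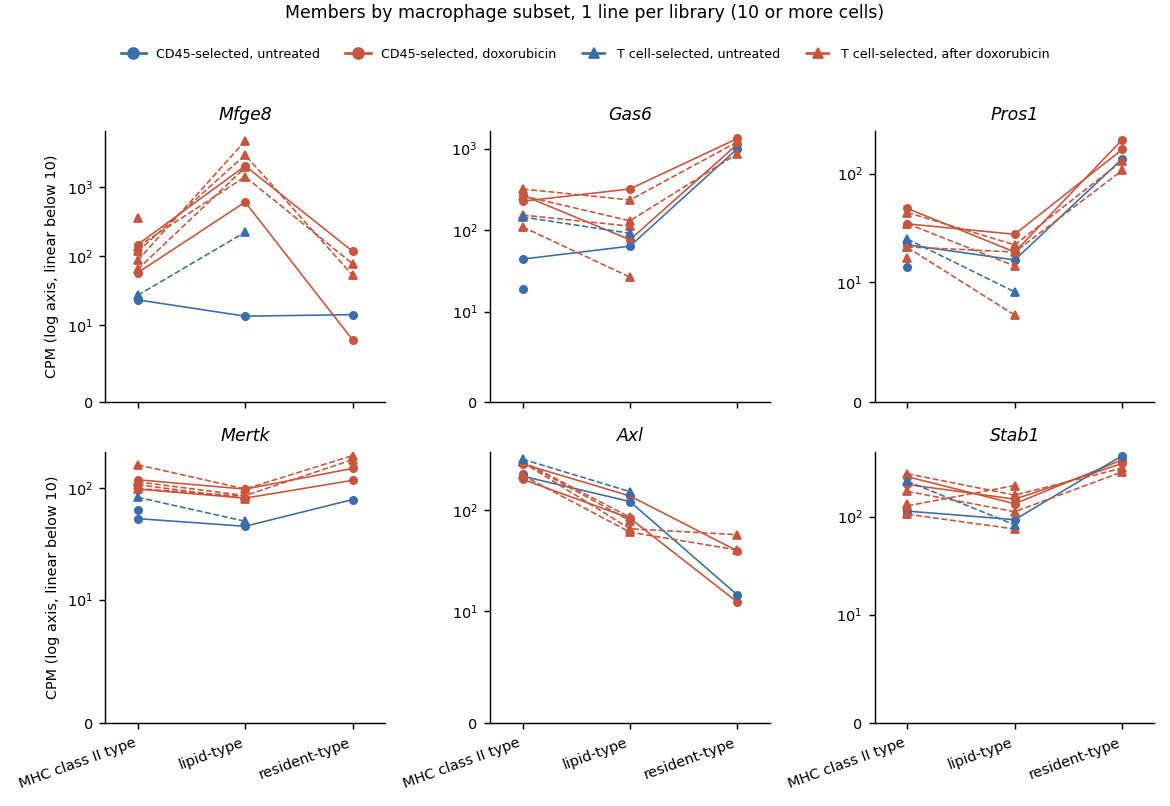
Level of 6 genes (CPM, log axis that is linear below 10) in 3 macrophage types, 1 line per library with 10 or more cells of a type; circles are CD45+ and triangles T cell libraries, blue untreated and red after doxorubicin. Gas6 and Pros1 are highest in the resident type, Mfge8 in the lipid type of the treated libraries, and Axl is at 56.7 CPM or less in the resident type.

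Within the MHC class II type of the CD45+ libraries, values of untreated 1 and 2 and doxorubicin 1 and 2 were as follows and were not tested. Gas6 was at 44.1, 18.8, 226 and 269 CPM. Mertk was at 53.2, 62.99, 119 and 98.05 CPM and Stab1 at 114, 108, 213 and 256 CPM. Pros1 was at 22.01, 13.6, 34.3 and 47.6 CPM. Treated values lay above untreated ones for these 4 genes, whereas Axl, at 215, 224, 200.1 and 284 CPM, overlapped. The share of all genes that lay wholly above in this type is not given. In the whole macrophage gate it was 29.6%.

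The T cell libraries carried macrophages (86 to 704 cells) and tumour cells (160 to 1777 cells) through the selection, with 1 library per group and no test. Counts of treated libraries above or below, here and in what follows for these libraries, rest on 1 untreated library. The share of all genes with such counts is not given. Mfge8 in their macrophage gates was at 48.05 CPM untreated (95% Poisson interval 41.6 to 55.2, counting error only). After doxorubicin it was at 520.1 CPM at 48 h, 940.3 with IgG, 1631 with anti-PD1, 1127 with anti-CTLA4 and 547 with both. All 5 treated libraries lay above the untreated one, and the order among them has no replicate check. Krt18 in these gates was at 20.6 CPM untreated and 168, 24.6, 94.2, 175 and 7.35 CPM in the same order. Without cells holding 2 or more markers of another lineage Mfge8 was at 36.2 CPM untreated and 214, 867, 1036, 345 and 509 CPM. In their tumour gates Mfge8 was at 757 CPM untreated and 1211, 1217, 813, 1039 and 1551 CPM in that order, all 5 above the untreated library.

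Gas6 in the tumour gates of these libraries was at 55.6 CPM untreated (95% Poisson interval 52.97 to 58.3). It was at 410.2 CPM at 48 h, 189 with IgG, 169 with anti-PD1, 179.8 with anti-CTLA4 and 169 with both. All 5 treated libraries were above the untreated one, and the 4 harvested after antibody were below the 48 h library. In macrophages Gas6 was at 159 CPM untreated and 354, 147, 232, 112 and 167 CPM in the same order, with 3 of 5 treated libraries above the untreated one.

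Mertk in macrophages of the T cell libraries was at 78.4 CPM untreated and 88.9 to 143 CPM treated, all 5 above. Axl was at 298 CPM untreated and 130.1 to 246 CPM treated, all 5 below. Pros1 in tumour cells was at 36.3 CPM untreated and 54.9 to 127 CPM treated, all 5 above. In the macrophage gates Pros1 was at 22.1 CPM untreated and 40.8, 24.6, 23.3, 17.2 and 24.5 CPM at 48 h and with IgG, anti-PD1, anti-CTLA4 and both, 4 of 5 above and 3 of those by little. Stab1 in macrophages was at 233 CPM untreated and 99.8 to 243 CPM treated, and Tyro3 in tumour cells at 15.4 CPM untreated and 10.7 to 24.8 CPM treated, with 1 of 5 above for both. Timd4 gave 1 UMI in the 29 cells of the untreated dendritic gate, 1 in the 18 of the IgG library, 0 in the dendritic gates of the other 4 libraries, and at most 3 UMIs in a macrophage gate.

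**Figure D4:**
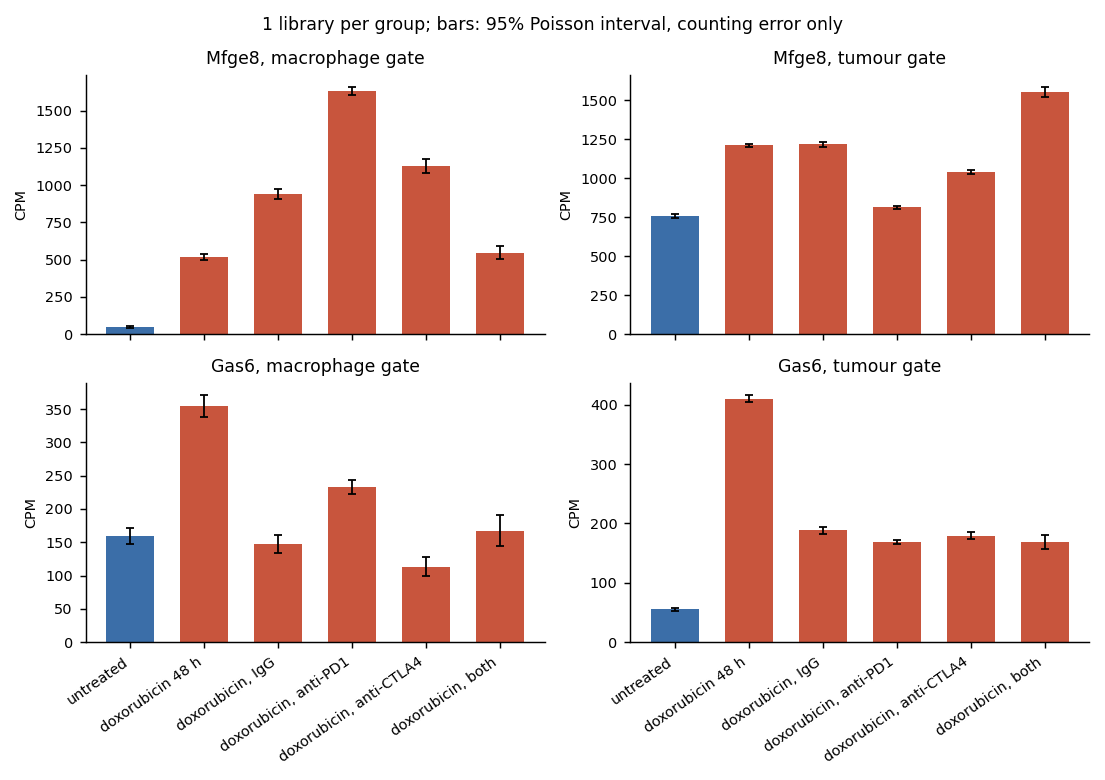
Mfge8 (top) and Gas6 (bottom) in the macrophage gate (left) and the tumour gate (right) of the 6 T cell libraries, in CPM, 1 bar per library with its 95% Poisson interval for counting error; blue is untreated. Mfge8 in macrophages is at 48.05 CPM untreated and 520.1 to 1631 CPM treated, and Gas6 in tumour cells at 55.6 CPM untreated and 169 to 410.2 CPM treated.

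In the pooled table of unsorted tumours, tumour cells held Mfge8 at 1460.3 CPM in barcode set 1 and 687 in set 2, and Gas6 at 537 and 87.1 CPM. Macrophages held Mfge8 at 2213 CPM in set 1 (137 cells) and 46.2 in set 2 (544 cells). In set 1 the 9 cells with 5 or more Mfge8 UMIs held 99.2% of the gate's Mfge8 UMIs. Csn3 was at 1111 CPM and Krt18 at 196 CPM in them, against 26.4 and 5.73 CPM in the other macrophages of that set. Of the 9, 5 were not mixed cells and held 89.98% of the UMIs. The part of epithelial RNA in this level was not tested. Mertk in macrophages was at 78.98 and 66.3 CPM and Axl at 269.8 and 255 CPM. Timd4 gave 7 UMIs in the 39 dendritic cells of set 2 and 0 in the 6 of set 1.

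Other genes of dead-cell clearance were read by list in the macrophage gate. Over all genes of the gate 1.78% rose and 2.13% fell. Of 16 uptake receptors tested 1 rose and 2 fell. Cd36, a scavenger receptor, rose from 129 and 74.9 CPM untreated to 425 and 494 CPM (log2 fold change 2.13, edgeR adjusted p = 0.0165), Scarb1, a lipoprotein receptor, fell by 1.29 on the log2 scale (adjusted p = 0.0243) and Havcr2, which encodes TIM-3, fell by 1.33 (adjusted p = 0.036). Of 7 bridges and opsonins 2 rose: Anxa1, annexin A1, from 66.6 and 70.7 CPM untreated to 185 and 259.9 CPM, and Thbs1, thrombospondin 1, from 295 and 274 CPM untreated to 913 and 624 CPM (edgeR adjusted p = 0.0143 and 0.0332). Of 12 lipid-handling genes Abca1, the cholesterol exporter, rose by 1.84 (adjusted p = 0.0213) and Pparg, a lipid-sensing nuclear receptor, fell by 1.72 (adjusted p = 0.0435). Of 6 shedding and brake genes Socs1 and Socs3, which dampen cytokine signalling, fell by 1.35 and 1.18 (adjusted p = 0.0176 and 0.0374). S1pr1, a sphingosine-1-phosphate receptor, rose by 2.10 (adjusted p = 0.0117), 1 of 11 find-me and eat-me genes. By edgeR 0 of 17 engulfment genes passed, with 2 at an unadjusted p under 0.05, as 21.5% of all genes had. All 10 of these calls were lost without doxorubicin replicate 1 and without doxorubicin replicate 2, when 0 genes of the gate passed. Median log2 changes of the tested members were 0.48 for the uptake receptors, 0.87 for the bridges and opsonins, 0.13 for the engulfment genes, 0.29 for the lipid-handling genes, -0.02 for the shedding and brake genes and 0.11 for the find-me and eat-me genes, beside -0.01 for all genes.

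In the tumour gate 1.96% of all genes rose and 2.67% fell, and 2 of 9 bridges and opsonins rose: Anxa1 from 159 and 209 CPM untreated to 791 and 657 CPM and Lgals3, galectin-3, from 52.2 and 89.7 CPM untreated to 413 and 258 CPM (edgeR adjusted p = 0.0227 and 0.0414). Of 11 lipid-handling genes 3 rose, the sterol exporters Abcg1 and Abca1 by 1.83 and 2.10 on the log2 scale and Mylip by 1.20 (adjusted p = 0.0147, 0.0225 and 0.0363). P2ry6, a nucleotide receptor, rose by 2.54 (adjusted p = 0.0284), 1 of 8 find-me and eat-me genes. By edgeR 0 of 14 uptake receptors, 0 of 18 engulfment genes and 0 of 6 shedding and brake genes passed, with 4, 2 and 0 at an unadjusted p under 0.05, as 24.1% of all genes had. Abcg1 kept its call with each library left out (adjusted p up to 0.0435). Abca1 lost it without untreated replicate 2, Anxa1 and Mylip without either untreated library, Lgals3 without untreated or doxorubicin replicate 1, and P2ry6 without either untreated library or doxorubicin replicate 2 (adjusted p up to 0.0766, 0.108, 0.279, 0.132 and 0.0912). Median log2 changes of the tested members were 0.44 for the uptake receptors, 0.66 for the bridges and opsonins, -0.08 for the engulfment genes, 0.84 for the lipid-handling genes, 0.15 for the shedding and brake genes and 0.60 for the find-me and eat-me genes, beside -0.01 for all genes.

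The genes most like 7 of the members had the highest Pearson r of log2(CPM + 1) over 24 gate sums of the CD45+ libraries, among 12181 genes. The sums share libraries and depth, and r is given as a description. For Mfge8 these were Ptk2 (r = 0.93), Cp and Vldlr, and for Gas6 Akr1b8 (r = 0.95), Phyhd1 and Ctsf. For Mertk they were Scamp5 (r = 0.914), Gna12 and Glmp, for Axl Tmem119 (r = 0.921), Rab3il1 and Cndp2, and for Tyro3 Plekha7 (r = 0.98), Elmo3 and P3h2. For Stab1 they were Brox (r = 0.932), Tpcn2 and Trem2, and for Timd4 Tlr11 (r = 0.937), Gpr4 and Sept3. Timd4 was high only in the untreated dendritic sums (13 and 27.7 CPM), from a handful of cells, so its r rests on those sums.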

How the data were processed

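Per the file headers, the authors made the matrices of the 10 sorted libraries with Cell Ranger 6.0.0; per the labels they used a 3' single-cell kit and the GRCm38 (mm10) build. The deposited values are raw UMI counts per feature and cell. The pooled table also holds counts, and the submitters' processing notes name Cell Ranger and Seurat for it. The matrices carry no gene names, so rows were named by the pooled table's gene order; library totals correlated with that table at r = 0.954 to 0.984 in this order and at most 0.354 when shifted (across genes, which are not independent). Barcodes with 500 UMIs or more, 200 genes or more and under 20% mitochondrial counts were kept. No cell barcodes were used for the sorted libraries: 0 cell profiles were identical between libraries, and the pooled sets shared 0 barcodes. No doublet caller was run; cells that fitted 2 gates equally were left out.

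UMI counts were summed per gate and library (30 cells or more) and tested with edgeR 4.0.16 (TMM, filterByExpr, robust quasi-likelihood), adjusted over all genes tested; gates were compared with the library as a block. Values are CPM in place of the planned smaller scale, which moves no ratio. Alternatives were DESeq2 1.42.0, RLE scaling, no filter, other gates and cell filters, blocks and left-out libraries (R 4.3.3, Python 3.11.15). The planned dendritic and stromal treatment tests had too few cells. The scripts were tested on simulated data. Members and lists were chosen with earlier results of these data known. The 8 members were always named, with the 3 called genes of smallest adjusted p per list and direction, and the 3 most like genes per member; those of Pros1 are not reported here. The bulk expression of a tumour cell line and the chromatin accessibility samples were not analysed here.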

Additional observations from a re-analysis of the deposited data

Results flagged for a closer look

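The doxorubicin change differed between the macrophage and the tumour gate for 22 of the 14236 genes tested (edgeR interaction term with the library as a block). For 14 of them the change was more positive in macrophages and for 8 in tumour cells. None of the 7 members tested was among them. The count was 0 without the block (1435 genes at an unadjusted p under 0.05; DESeq2 with the block called 193) and 0 to 1 with 1 library left out.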

How the results depend on the processing

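Untreated and doxorubicin libraries share replicate numbers, but no label says that a number pairs them; deviations of same-numbered libraries correlated at 0.258 (macrophage gate), 0.265 (tumour gate) and 0.252 (whole library). With the replicate number as a block, 1244, 1621 and 1593 genes were called in the macrophage gate, tumour gate and whole library, against 483, 614 and 884. In that fit Mfge8, Mertk, Pros1 and Stab1 passed in macrophages (adjusted p = 0.0107, 0.0237, 0.0305 and 0.0204), Mfge8 and Stab1 in tumour cells (0.0296 and 0.0418) and Pros1 in the whole library (0.0485). Without the library block, edgeR called 0 genes between macrophages and dendritic cells (176 with it; 1862 at an unadjusted p under 0.05) and 0 for the difference in change between the macrophage and tumour gates (22 with it; 1435 unadjusted). For the 3 treatment comparisons, macrophages against dendritic cells and that difference, DESeq2 called 893, 1333, 2523, 504 and 193 genes, and edgeR without the low-count filter 1233, 2229, 2005, 1405 and 312. With 1000 UMIs per cell macrophages against dendritic cells gave 272 and the difference 39; without mixed cells the difference gave 228, from 3 libraries. With 1 library left out the counts were 0 to 1166 (macrophage gate; 0 without doxorubicin replicate 1 or 2, with 1774 and 2109 at an unadjusted p under 0.05), 262 to 1328 (tumour gate), 424 to 656 (whole library) and 0 to 1 (difference); the lone sample of a group is then assumed to vary like the other group. The comparison of macrophages with tumour cells stayed within 1.5 times its count of 9225 in all alternatives run. Mfge8 in the pooled tumour gate was 999.8 CPM, 1131 without mixed cells and 1029.5 as a mean over cells. Log2 differences of members that changed sign, none of them called, were these: with 1 library left out, whole-library Mertk (-0.13 to 1.05), Axl (-1.03 to 0.0223) and Tyro3 (-0.20 to 0.37; -0.03 without doxorubicin replicate 1), Gas6 between macrophages and tumour cells (-0.26 to 0.32), and the difference in change of Gas6 (-0.20 to 1.59) and Stab1 (-0.95 to 0.14); without mixed cells, Gas6 between macrophages and tumour cells (0.20) and the difference in change of Axl (2.73) and Stab1 (0.0156); and without the block, Gas6 between macrophages and tumour cells (0.15). Mfge8 between those gates also lost its call without the filter and without the block (adjusted p = 0.0757 and 0.171), and Pros1 without the block (0.118). The cause of these shifts was not tested. Not run for want of cells were the dendritic and stromal treatment tests, the tumour gate without mixed cells, and macrophages against dendritic cells with stricter gates, without mixed cells or with a library left out.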
